A study of Mus musculus with 18 samples.

Results

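The proteasome genes examined here are 38 named genes: the outer (alpha) and inner (beta) rings of the core particle, the 3 catalytic subunits of the immunoproteasome, the ATPase and non-ATPase subunits of the regulatory cap, and 4 activators. All 38 had a span in the RefSeq gene table, among 21887 protein-coding genes. MYC occupancy was measured by chromatin immunoprecipitation and sequencing of frozen liver tumours from FVB mice, and a gene was called bound in a library when the summit of a deposited MYC peak lay within 1 kb of either end of the gene. The design asks whether MYC occupancy changes with the dose of Arid1a, which encodes a subunit of the SWI/SNF chromatin remodeller. Every tumour carried a TRE-MYC transgene switched on by LAP-tta (a tetracycline transactivator driven by a liver promoter) once doxycycline was withdrawn. WT tumours were LAP-tta-Arid1aflfl;TRE-MYC, with floxed Arid1a and no Cre, from mice about 55 days old. Het tumours (about 70 days) carried the same transgenes with Arid1afl/+ and Alb-cre, and Homo tumours (about 100 days) carried them with Arid1afl/fl and Alb-cre, where the albumin promoter directs Cre to hepatocytes and leaves other cells of the tumour with Arid1a. Tissue was taken at death, so age cannot be told apart from Arid1a dose, nor can Cre where WT is compared with Het or Homo. There were 3 MYC libraries per genotype, and the labels do not say whether the replicates came from separate animals.

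The proteasome degrades proteins that carry ubiquitin chains. Its core particle is a barrel of stacked alpha and beta rings with the proteolytic sites inside, its cap unfolds substrates with a ring of ATPases, and activators such as the PA28 family open the barrel without the need for ubiquitin. In immune cells and under interferon, the catalytic beta subunits are exchanged for those of the immunoproteasome, which cuts peptides for antigen presentation. MYC binds DNA as a dimer with MAX and prefers the E-box hexamer CACGTG.

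The promoters shown here are the ones on which the results below turn: those of Psme3 and Psmb10, the members with a peak in the most libraries, that of Psma4, which holds the same hexamer and had no peak, and that of Psmb4, which had peaks in Het libraries and does not hold it. They run 5′ to 3′ on the strand of the gene, and those of Psme3, Psmb10 and Psmb4 end at the base before its start. All are from RefSeq on GRCm38.p6 (the assembly behind mm10), and capitals mark CACGTG. They are Psme3 at chr11:101315963-101316212 (plus strand), Psmb10 at chr8:105938393-105938642 (minus), Psma4 at chr9:54950707-54950736 (plus, 30 bases around the hexamer, inside the span of the overlapping gene AY074887) and Psmb4 at chr3:94886959-94887208 (minus).
Psme3: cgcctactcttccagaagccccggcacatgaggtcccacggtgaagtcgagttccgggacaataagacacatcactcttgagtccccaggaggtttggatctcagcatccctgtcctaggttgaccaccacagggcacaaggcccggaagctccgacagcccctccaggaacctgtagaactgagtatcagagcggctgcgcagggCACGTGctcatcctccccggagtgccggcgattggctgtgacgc
Psmb10: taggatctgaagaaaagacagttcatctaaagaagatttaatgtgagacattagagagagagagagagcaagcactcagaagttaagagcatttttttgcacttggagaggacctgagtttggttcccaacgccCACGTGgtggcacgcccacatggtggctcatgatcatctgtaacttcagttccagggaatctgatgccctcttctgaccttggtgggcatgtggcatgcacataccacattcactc
Psma4: ttctgcacagtcCACGTGggcagactgagc
Psmb4: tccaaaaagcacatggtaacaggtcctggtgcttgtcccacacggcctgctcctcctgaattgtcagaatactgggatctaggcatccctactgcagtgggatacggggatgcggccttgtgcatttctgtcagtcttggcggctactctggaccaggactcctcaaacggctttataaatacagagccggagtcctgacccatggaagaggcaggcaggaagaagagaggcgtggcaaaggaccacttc

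Most proteasome genes, like most protein-coding genes, had no listed MYC peak in any genotype. In Homo tumours Psme3, which encodes the nuclear activator PA28 gamma, was the only member with a peak. Of the 38 members, 8 had a peak in at least 1 of the 9 libraries and 30 had none. By role, 1 of 7 alpha ring genes (Psma2), 2 of 7 beta ring genes (Psmb3 and Psmb4), 1 of 3 immunoproteasome genes (Psmb10), 2 of 6 cap ATPase genes (Psmc2 and Psmc3), 1 of 11 other cap genes (Psmd3) and 1 of 4 activator genes (Psme3) were bound in any library. Over all protein-coding genes, 14.9% were bound in at least 1 library, compared with 8 of 38 here. In at least 2 libraries, 6 of the 38 members (15.8%) had a peak: Psme3 in 8, Psmb10 in 3, and Psmb3, Psmb4, Psmc2 and Psmd3 in 2 each, compared with 8.03% of all genes. Psma2 and Psmc3 had a peak in WT replicate 3 alone. When reads were scaled down by calculation to the depth of the library with the fewest input reads, and 1 limit on p applied throughout, 2 members (Psmb10 and Psme3) stayed bound in at least 2 libraries. The 8.03% of all genes is not for this setting. Without WT replicate 3 there were 3 (Psmb4, Psmb10 and Psme3).

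**Figure D1:**
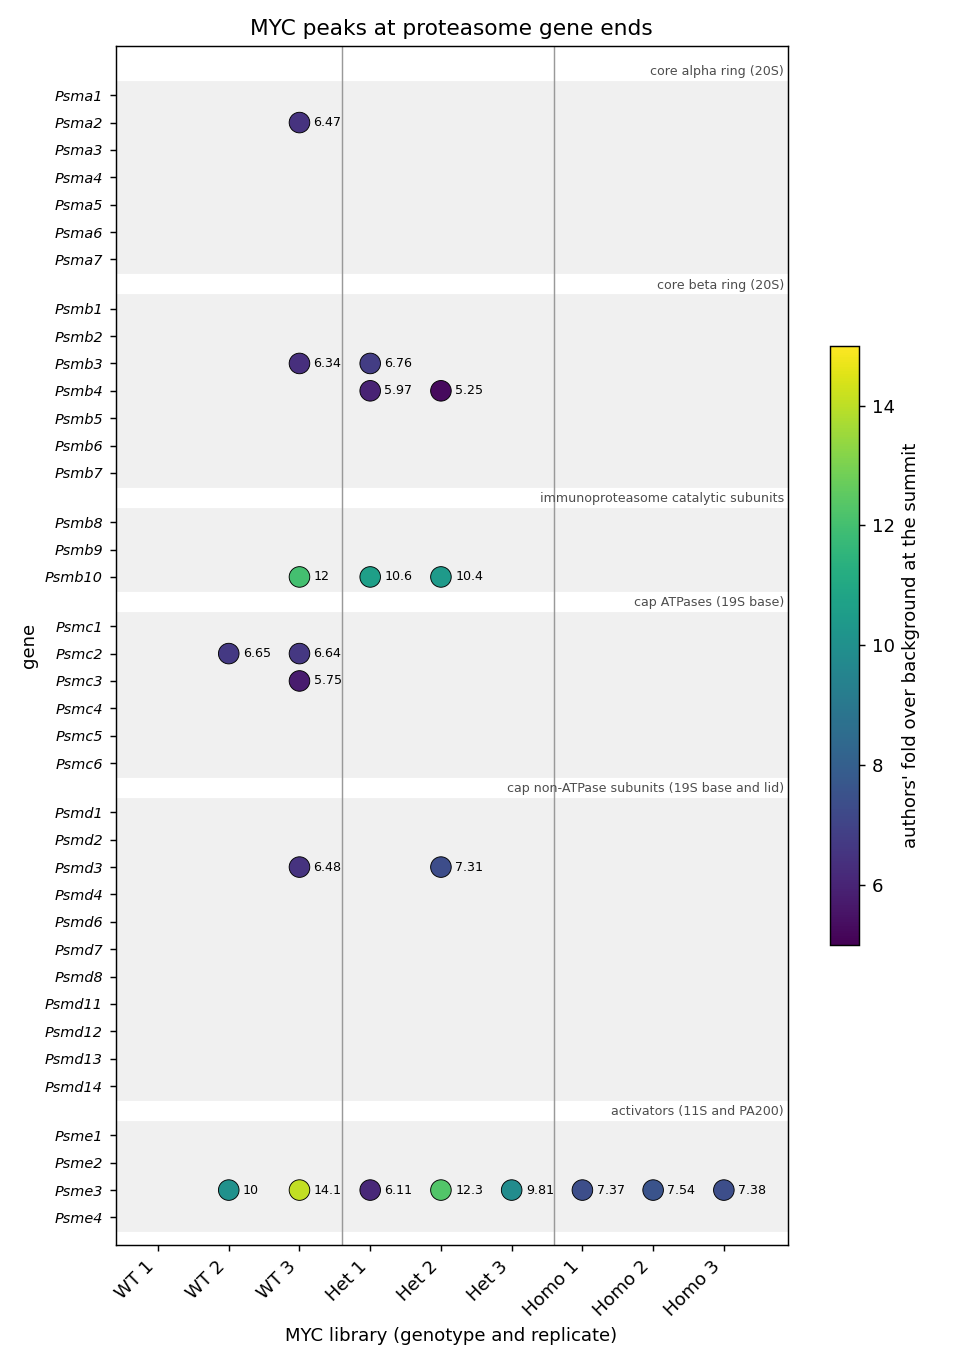
Each point is a MYC peak at an end of a proteasome gene (rows, grouped by role) in a library (columns, by genotype and replicate), coloured and labelled by the authors' fold over background. Psme3 has a point in 8 of 9 libraries and is the only gene with points in the Homo columns, Psmb10 follows with 3 points, and the other bound genes have 1 or 2.

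The 30 members without a peak were Psma1, Psma3, Psma4, Psma5, Psma6 and Psma7 of the alpha ring, Psmb1, Psmb2, Psmb5, Psmb6 and Psmb7 of the beta ring (Psmb5, Psmb6 and Psmb7 being the constitutive catalytic subunits), Psmb8 and Psmb9 of the immunoproteasome, Psmc1, Psmc4, Psmc5 and Psmc6 of the cap ATPases, Psmd1, Psmd2, Psmd4, Psmd6, Psmd7, Psmd8, Psmd11, Psmd12, Psmd13 and Psmd14 of the other cap genes, and the activators Psme1, Psme2 and Psme4. The farthest summit that counted lay 261 bp from its gene (Psmb3, Het replicate 1), and the nearest that did not count lay 2065 bp from the end of Psmc6 (WT replicate 3, fold 7.53). No member lay near the 1 kb limit. Psma3 had a summit inside its span in WT replicate 3 (fold 5.76), 5447 bp from the end of the span and 107 bp from the start site that the promoter table gives. By start sites alone it would therefore be bound in 1 library.

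The number of bound members moved with the number of bound genes of all kinds, both of which differed widely within a genotype. In WT, 0, 2 and 7 members had a peak in replicates 1, 2 and 3, where 0.0731%, 4.86% and 14.1% of all genes did. In Het, 4, 4 and 1 members had one, where the shares of all genes were 5.58%, 6.14% and 0.854%. In Homo, 1 member had a peak in each replicate, where the shares were 0.324%, 0.0548% and 0.918%. WT replicate 3 alone gave 7 of the 9 gene and library pairs in WT (Psma2, Psmb3, Psmb10, Psmc2, Psmc3, Psmd3 and Psme3), and leaving it out lowered the count from 9 to 2. Het replicates 1 and 2 gave 8 of the 9 pairs in Het, and the count was 5 without either of them. In any library of the genotype, 7 members were bound in WT, 5 in Het and 1 in Homo, beside 14.3%, 7.85% and 1.03% of all genes. The fewer proteasome peaks in Homo thus stood beside fewer peaks at all genes. At the equal input depth described above, which left MYC depth unequal, WT kept 3 of these pairs, Het 6 and Homo 3. Bound genes of all kinds then numbered 10, 270 and 1215 in WT replicates 1 to 3. They numbered 584, 973 and 128 in Het and 55, 12 and 142 in Homo. Each library has its own peak list, a gene without a listed peak is not shown to be free of MYC, and with 3 libraries against 3 no single gene can fall below a two-sided exact p of 0.1, so no test between genotypes was run. In whole tumour tissue, fewer cells with MYC at a site and less MYC per cell cannot be told apart.

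**Figure D2:**
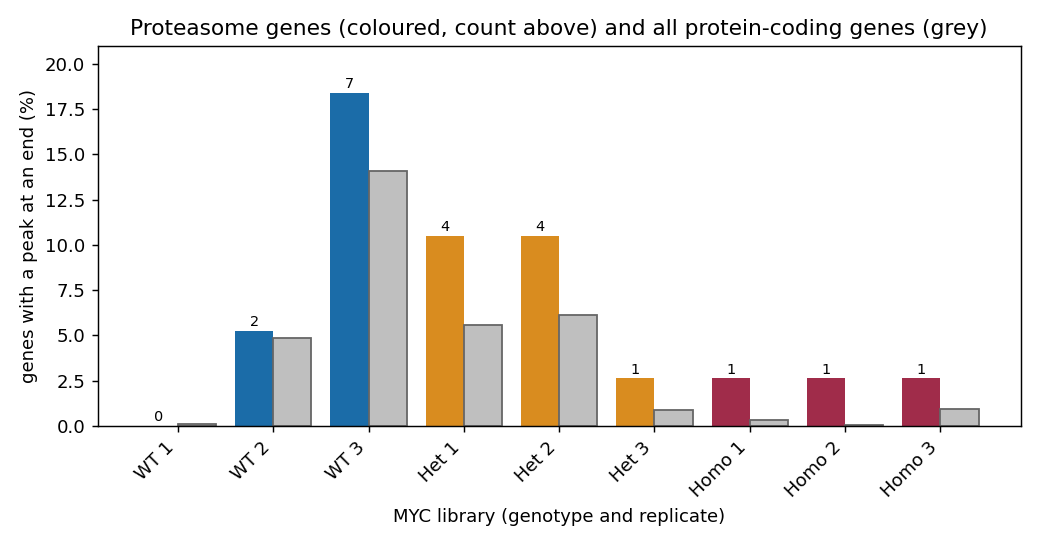
Bars give the percent of the 38 proteasome genes (coloured by genotype, with their number above) and of all 21887 protein-coding genes (grey) with a MYC peak at an end in each library. Both are highest in WT replicate 3, at 18.4% and 14.1%, and in each Homo library the coloured bar is the single gene Psme3.

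Psme3 (chromosome 11, gene span 101316213 to 101323537, mm10, plus strand) had a peak in WT replicates 2 and 3 and in every Het and Homo library. It was 1 of 14 genes (0.064% of all) with a peak in at least 8 libraries and 1 of 7 (0.032%) with one in all 3 Homo libraries. The authors' fold over background was 10 and 14.1 in WT replicates 2 and 3. In Het replicates 1 to 3 it was 6.11, 12.3 and 9.81. In Homo it was 7.37, 7.54 and 7.38. The Homo folds lay within the Het range and below both WT values, and WT replicate 1 had no peak to compare.

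The fold divides the reads at the summit, scaled to the input and with 1 added, by the local background with 1 added, and its low value in Het replicate 1 came with the highest background. There, 146 MYC reads lay at the Psme3 summit, over a background of 6 reads on the scale of the input. In the other 7 libraries the summit held from 50 (Homo replicate 2) to 109 reads (WT replicate 3), over a background of 1.73 to 3. These reads were solved from the deposited fold and p, as they depend on depth. Divided by the lowest background of each library, which stands for its genome-wide level, the scaled summit reads were 31.8 and 50.8 in WT replicates 2 and 3. In Het they were 49.3, 49.6 and 34.6 times that level, and in Homo 38.4, 33.6 and 41.7 times, in replicate order. On this scale the ranges of the 3 genotypes overlapped. In Homo replicate 1 the lowest background rests on 2 peaks.

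The place of Psme3 within each list moved with what else the list held. Among the gene-end peaks of WT replicate 2, 89 of 925 had a higher fold, and in WT replicate 3 it was 97 of 2764. In Het, 603 of 1064, 66 of 1183 and 10 of 166 were higher. In Homo, 22 of 62, 3 of 9 and 47 of 172 were higher. By rank in the whole list Psme3 was number 213, 173, 1072, 131, 52, 44, 36 and 123 in these 8 libraries, of lists of 51 to 4291 peaks. Ranks from lists of such different lengths cannot show whether the place of Psme3 changed between genotypes.

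**Figure D3:**
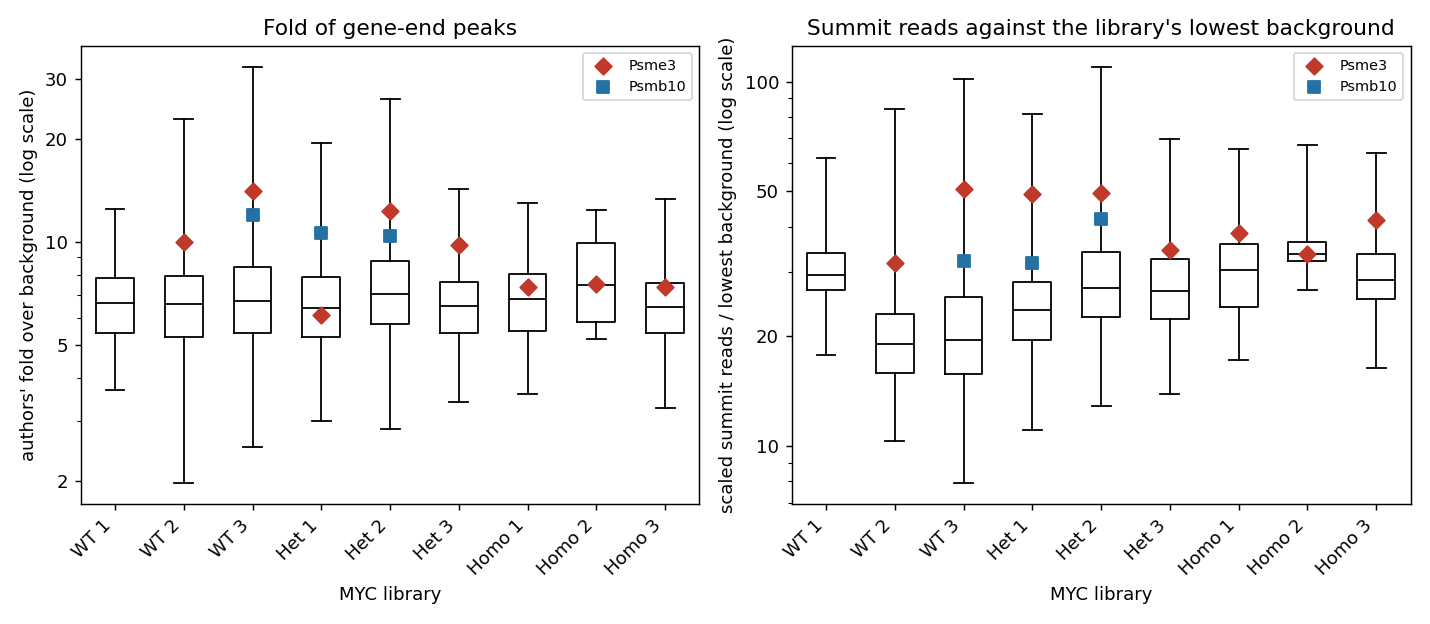
Boxes show the quartiles, and whiskers the full range, of all gene-end peaks in each library. The left panel gives the authors' fold and the right panel scaled summit reads over the lowest background of the library, both on log axes, with Psme3 as diamonds and Psmb10 as squares. Psme3 lies under the median fold of Het replicate 1 (6.11 against 6.41) but well above its median in summit reads (49.3 against 23.6), and in the Homo libraries its summit reads stand at 33.6 to 41.7.

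The summits of Psme3 fell within 29 bp of each other across genotypes, from 110 to 139 bp before the gene start, and no end of another gene lay within 1 kb of them. The single CACGTG of its promoter window lies 44 bp before the start (101316169 to 101316174), between 68 and 97 bp from the summits. The other activators were without a peak. Psme1 and Psme2, which encode the interferon-induced PA28 alpha and beta and lie close together on chromosome 14, had their nearest summits 22470 and 12896 bp away, at fold 4.31 in WT replicate 3. Psme4, which encodes the activator PA200, had none within 866041 bp.

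Psmb10, which encodes the immunoproteasome counterpart of the trypsin-like catalytic subunit, was bound in WT replicate 3 (fold 12) and in Het replicates 1 and 2 (folds 10.6 and 10.4). It was not listed in the 3 Homo libraries, nor in WT replicates 1 and 2 or Het replicate 3. The gene lies at chromosome 8, 105935728 to 105938392, minus strand. Its summits lay 81 to 84 bp before the start, a spread of 3 bp over the 3 libraries, and 29 to 32 bp from the CACGTG that begins 116 bp before the start. Its median fold of 10.6 was above the 8.68 of Psme3, whose single highest fold (14.1) was above that of Psmb10. The summit reads of Psmb10 numbered 69, 94 and 65 in WT replicate 3, Het replicate 1 and Het replicate 2, or 32.2, 31.8 and 41.9 times the lowest background. The weakest gene-end peak listed in the Homo libraries stood at 17.2, 26.9 and 16.4 times that level, below the Psmb10 values of the other genotypes. In WT replicate 2 the weakest stood at 10.3 times, and Psmb10 had no peak there either. The Homo values are the lowest of 62, 9 and 172 gene-end peaks and are not limits of detection. Whether MYC was absent from Psmb10 in Homo tumours was not tested. The other immunoproteasome genes, Psmb8 and Psmb9, sit beside each other on chromosome 17 with the peptide transporter genes. Their nearest summit was 75723 and 59558 bp away (Homo replicate 3, fold 4.06).

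In the core particle, peaks were weaker and in fewer libraries. Psmb3, a structural beta subunit, had a peak in WT replicate 3 (fold 6.34) and Het replicate 1 (6.76), 252 and 261 bp before its start. That summit is also within 1 kb of an end of Pcgf2 and of a tRNA gene, so the peak cannot be given to Psmb3 alone. Psmb4, another structural beta subunit, had a peak in Het replicates 1 and 2 (folds 5.97 and 5.25), with summits 126 and 222 bp before the start, and in no WT or Homo library. It was the only member in at least 2 Het and no WT library, as were 0.0868% of all genes. The Psmb4 summits lay 96 bp apart, and both folds were under the median of gene-end peaks in their library (6.41 and 7.03). Psma2, of the alpha ring, had 1 peak (WT replicate 3, fold 6.47), 131 bp before its start and within 1 kb of an end of Mrpl32, a mitochondrial ribosomal protein gene.

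In the cap, Psmc2, an ATPase subunit, had a peak in WT replicates 2 and 3 (folds 6.65 and 6.64) and in no Het or Homo library. It was the only member in at least 2 WT and no Het library, as were 0.649% of all genes. Its start lies next to that of Dnajc2, a ribosome-associated chaperone gene, and the summits 167 and 109 bp before the start of Psmc2 cannot be given to either gene alone. Psmc3, another ATPase subunit, had 1 peak in WT replicate 3 (fold 5.75), 53 bp inside the span and within 1 kb of an end of Gm13778. Psmd3, a scaffold subunit of the cap lid, had one in WT replicate 3 (fold 6.48) and Het replicate 2 (7.31), 52 and 3 bp from the end of its span at 98682554 on chromosome 11. No other gene end was within 1 kb. Psmc3 and Psmd3 are not in the promoter table. Psmd14, which removes ubiquitin chains from substrates, and the ubiquitin receptor Psmd4 had no peak.

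The 10 peaks of Psma2, Psmb3, Psmb4, Psmc2, Psmc3 and Psmd3 stood at 12.3 to 29.0 times the lowest background, where the medians of gene-end peaks in those libraries were 19.1 to 27.1 times. The lowest was Psmc2 in WT replicate 2, at 12.3 times against a median of 19.1 and a 5th percentile of 12.7, and the highest was Psmd3 in Het replicate 2, at 29.0 against a median of 27.1. The weakest gene-end peaks of the Homo lists (16.4 to 26.9 times) fell inside that range. Psme3, at 31.8 to 50.8 times in all 8 libraries, was above these values. Whether the shorter Homo lists left out peaks of the weaker members was not tested.

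The promoter table held 35 windows of 300 bases (250 before to 50 after the start) for 32 of the 38 members, 6 of them with a peak. CACGTG, which reads the same on both strands, was in the windows of 3 members: Psme3, Psmb10 and Psma4. Psme3 and Psmb10 were the members with a peak in the most libraries, and Psma4, with the hexamer 140 bp before its listed start, had no summit within 191057 bp. The hexamer was in 7.84% of the 21263 windows of all protein-coding genes, in 6.25% of those of genes without a peak, and in 18.9% of those of genes bound in at least 2 libraries. The windows of Psma2, Psmb3 and Psmb4 held neither it nor CACGCG, a second E-box form searched on both strands. CACGCG was in 12.1% of all windows and 7 of the 35 here. Genes without a peak had it in 1638 of 17955 windows. The share was larger for genes bound in at least 2 libraries, at 538 of 1795 windows. Among the members, by the gene-end rule, 1 of 7 windows of bound members held CACGCG, and 6 of 28 of the others did. Those 6 were of Psma3, Psma4, Psmc4, Psmd2, Psmd14 and Psme4. Psma3 holds it 75 bp before its listed start and had a summit 107 bp from that start in WT replicate 3. By start sites alone Psma3 would count as bound, so these few windows do not show in which direction the shares differ. Psmc2 had CACGCG only in the window of its second start, at 21786630 to 21786635 on chromosome 5. Its summits, at 21785108 and 21785166, lay before its first start (21785275), away from that window. The antioxidant response core TGACNNNGC, the kind of site through which NFE2L1 and NFE2L2 act on proteasome genes, was searched on both strands and found in 5 of the 35 windows (Psmb5, Psmb6, Psmc6, Psmd12 and Psme4) and in 13.0% of all windows. None of those 5 genes had a MYC peak, and 26 of the 32 members with a window had none. Over all genes, this core was in 12.4% of windows of genes without a peak. For genes bound in at least 2 libraries it was in 17.3%. A match is a sequence description and not a measured site.

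**Figure D4:**
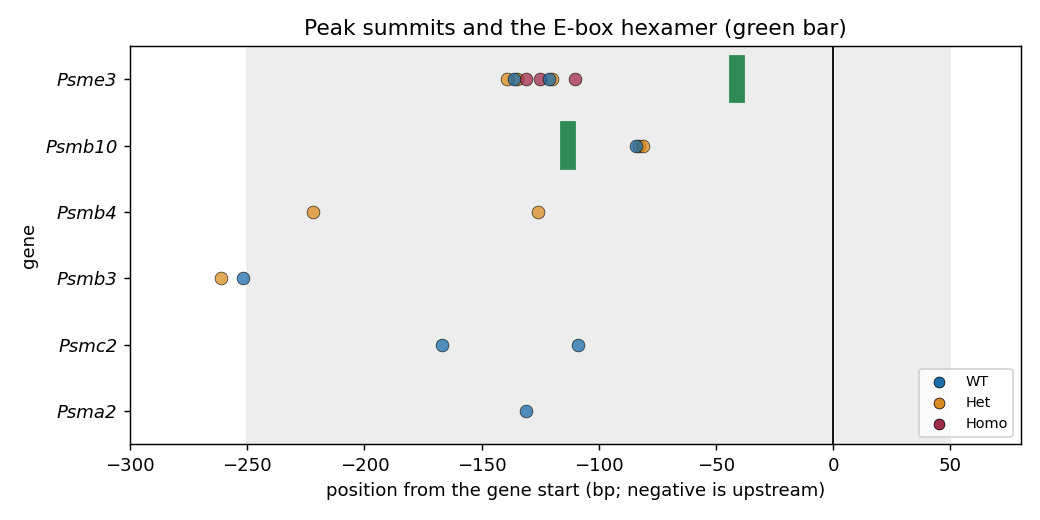
Points are peak summits of the 6 bound members with a known strand, by distance from the gene start in bp and coloured by genotype, and green bars mark CACGTG within the searched window (shaded). The Psme3 summits of all 3 genotypes lie together 110 to 139 bp upstream, those of Psmb10 at 81 to 84 bp, and the Psmb4 summits are 96 bp apart.

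The other genes of the pathway, like the members without Psme3, had peaks in WT and Het libraries and none in Homo libraries, where 1.03% of all genes had one. Over all genes, 14.9% had a peak in any library and 8.03% in at least 2. Of 8 assembly chaperone genes, 6 had a peak in any library and 3 in at least 2, among them Psmg4, with folds of 7.64 in WT replicate 2, 13.0 and 6.09 (at 2 peaks) in WT replicate 3 and 6.25 in Het replicate 2. Of 7 genes of the NFE2L1 route, by which cells raise proteasome transcription when proteolysis falls short, 4 were bound in at least 2 libraries (Nfe2l1, Ddi2, Vcp and Nfe2l2). Nfe2l2, a related oxidative stress factor, had a peak in 5 libraries, all WT or Het, with its highest fold per library at 10.1 and 9.88 in WT replicates 2 and 3 and at 9.82, 11.5 and 4.18 in Het. Of 10 further subunits and proteasome-bound factors 1 (Ube3c), and of 6 shuttle factors 1 (Rad23b), reached 2 libraries. The 9 antigen presentation genes (among them Tap1, Tap2, B2m and Nlrc5) had no peak in any library. Differences between these lists and the members were not tested.

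Of the growth-related gene groups most like this one, all 10 chaperonin genes of the CCT and HSP60 complexes and 28 of 46 large-subunit ribosomal protein genes (60.9%) were bound in at least 2 libraries, beside 6 of 38 proteasome genes and 8.03% of all genes. In any Homo library these were 2 of 10, 7 of 46 and 1 of 38, beside 1.03% of all genes. These lists were chosen with results known and the difference was not tested. Without Psme3, 5 of 37 members (13.5%) were bound in at least 2 libraries.

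The libraries differed in depth and in how far their peaks sat at genes. Input depth was taken as the lowest solved background of each library divided by its shortest peak, used as the fragment length. It ran from 3.37 to 6.27 reads per kb, and each WT value (4.04 to 6.27) was above each Homo value (3.37 to 3.69). The order of WT replicate 1 (shortest peak 170 bp) and Homo replicate 1 (201 bp) rests on that length. In Homo replicate 1 the lowest background also rests on 2 peaks. MYC depth, solved likewise, was 14.8, 13.7 and 11.1 reads per kb in WT replicates 1 to 3. It was 15.2, 7.8 and 8.29 in Het and 8.69, 8.6 and 12.4 in Homo. Within WT, the library with the highest MYC depth had the shortest list (92 peaks) and that with the lowest had the longest (4291). In WT replicate 1 and Homo replicate 2 only 15.2% and 17.6% of peaks lay at a gene end, compared with 43.9% to 64.4% in the other 7 libraries. Leaving out both libraries kept the same 6 members bound in at least 2 libraries. MYC peaks mark binding and not expression, so they check the tissue only weakly: of the hepatocyte genes, Cebpa had a peak in WT replicate 3 and Het replicate 2 and Alb and Ttr had none, and the 10 immune and 8 endothelial and stellate cell markers had none.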

How the data were processed

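MYC and input libraries were made from frozen liver tumours, 3 of each per Arid1a genotype, with groups and replicate numbers from the sample titles. The 9 MYC peak lists were analysed. The submitters' processing notes name the build mm10 and the tools HOMER, MACS2 2.0.10.20131216, Bowtie2 2.2.3 and Picard. For the peak threshold no value was found in the labels or files used here. Peaks were called per library. The deposited columns are the fold over background (a ratio), −log10 p and −log10 q, an integer score and the summit offset, as the authors' peak caller wrote them. Folds are the authors' and describe a peak within its list.

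A gene was bound when a summit lay within 1 kb of either end of its RefSeq span (GRCm38.p6, protein-coding, 21887 genes). Whole reads at the summit and the background were solved from fold and p, within 0.001 of −log10 p, for 99.5% of peaks, and the method was tested on simulated data. Thinning multiplied both by the ratio of the lowest to the own input depth and kept peaks with a −log10 p of at least 10. Motifs were sought in RefSeq promoter windows, whose strand was checked where windows overlap. Counts have no error other than the spread between libraries shown. Of the members and pathway genes, the text names members with a peak in any library with their folds, the others by name, and pathway genes bound in at least 4 libraries or counted; Psmg4 was named after its values were seen. The members and lists were chosen with earlier results of these data known. Of 49 symbols on the pathway lists, 46 matched the table (1 had no match and 2 are older names of listed genes). Some genes of the pathway and tissue lists are not reported here. Python 3.11.15, pandas 2.3.3 and scipy 1.17.1 were used.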

Additional observations from a re-analysis of the deposited data

How the results depend on the processing

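Counts of bound members kept within 1.5 times of their value with a −log10 q of at least 5, a fold of at least 5, a −log10 p of at least 10, windows of 250 bp or 5 kb, any overlap of the peak, or start sites alone. With input depth scaled to the shallowest input, the members bound in at least 2 libraries fell from 6 to 2 and the WT pairs from 9 to 3. Bound genes of all kinds fell as well, from 16, 1063 and 3090 to 10, 270 and 1215 in WT replicates 1 to 3. With each list limited to its 51 highest peaks, where absence means a lower rank, 1 member (Psme3, in Homo replicates 1 and 2) was bound in 2 libraries, and the pairs numbered 0 in WT and 0 in Het. Leaving out 1 library at a time, the members bound in at least 2 libraries ranged from 3 (without WT replicate 3) to 6, the WT pairs from 2 to 9 and the Het pairs from 5 to 8. Psme3 was bound in 8 libraries under each setting that kept all libraries, except the limit of 51 peaks (2 libraries). Leaving out WT replicate 1 and Homo replicate 2 together was chosen after seeing the data. No paired analysis was possible because the results are counts from no test. Depth limits what the absence of a peak shows.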
